A study of Mus musculus with 32 samples.

Results

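The genes described here are the cytosolic ribosomal protein genes of mouse lung. They were taken by name from the gene table: protein-coding genes whose symbol begins with Rpl or Rps and a digit, with Rplp0, Rplp1, Rplp2 and Rpsa added, and with the Rps6k kinases and the pseudogene names left out. This gave 87 of 35275 genes. One of them, Rps19bp1, is a binding partner of Rps19 and not a ribosomal protein, and ribosomal proteins such as Fau and Gnb2l1 (Rack1) lie outside the name rule.

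Polyadenylated RNA from whole lung of C57B/6 mice was sequenced in 32 libraries of 8 groups. The first experiment had no surgery and held 3 male and 3 female room-air libraries and 5 male and 5 female cigarette-smoke libraries, all labelled with 5 months of exposure. The second experiment held females only, all under cigarette smoke: sham surgery and ovariectomy (OVX, removal of the ovaries) for 3 months with 3 libraries each, and the same surgeries for 5 months with 5 libraries each. It had no air group. The mice's ages are not stated in the labels. The labels do not say that each library came from its own animal, so p-values measure the spread between libraries. In whole tissue, fewer cells of a type and less RNA per cell cannot be told apart.

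Ribosomal proteins assemble with ribosomal RNA into the small subunit (Rps genes, with Rpsa), which decodes the mRNA, and the large subunit (Rpl genes), which joins amino acids. Rplp0, Rplp1 and Rplp2 form the stalk that recruits elongation factors. Their mRNAs typically begin with a C followed by a run of pyrimidines, the terminal oligopyrimidine (TOP) motif, through which mTORC1 controls their translation. Several have tissue-restricted copies, such as Rpl3l of heart and skeletal muscle and Rpl10l of testis.

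Library totals ran from 13790052 to 24497332 counts. Lung epithelial markers (7 genes) summed to 43787 to 76358 CPM (counts scaled to library size within each experiment), so the labelled tissue was present in every library. Some libraries also held liver transcripts: 7 of 32 had over 100 CPM of albumin (Alb), a liver secretory protein, among them male air 1 and female air 2. In the erythroid list (7 genes, mainly haemoglobins), sums were 2252 to 3175 CPM in female air and 6225 to 14731 CPM in female smoke.

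Levels of the ribosomal protein genes spanned more than 3 orders of magnitude per unit length. Over all libraries the highest mean TPM (transcript abundance scaled for gene length) was 3439 for the stalk protein Rplp1, followed by 3265 for Rps12, 3140.4 for Rps27 and 2929 for Rps14. The highest member differed between groups. It was Rps27 in OVX at 3 months (4020 TPM) and sham at 5 months (4068 TPM), and Rps12 in OVX at 5 months (4088 TPM). Over all libraries the other stalk proteins stood lower, Rplp0 at 1335 TPM and Rplp2 at 668 TPM. At the bottom stood Rpl24 at 1.1, Rpl3l at 0.549 and Rpl39l at 0.381 TPM, and Rpl10l had 0 counts in every library. Rpl24 encodes a general large-subunit protein. Of its 50-base words in the GENCODE M21 transcripts, 51.8% also occur in other genes, most in Gm28037, so its count is uncertain. Rpl35 (49.9 TPM) and Rpl23a (47.7 TPM) were likewise far below most large-subunit genes, with 84% and 80.8% of words shared. The median member shared 22.7% of its words, and 8 of 87 shared over 50%. Among the 8, Rpl36 (81.1% shared, 1055 TPM), Rps3a1 (71%, 2312 TPM), Rplp1 (60%, 3439 TPM) and Rpl19 (57.4%, 1526 TPM) stood high. Rps27rt (91.1%) stood low, at 19.7 TPM. The counts of these genes are uncertain as well.

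Together the 87 genes took 2.67% to 4.78% of a library's counts. In male air the shares were 3.43, 3.29 and 2.67%, and in male smoke 3.56, 3.36, 3.27, 3.57 and 3.67%. In female air they were 3.11, 2.92 and 3.3%, and in female smoke 3.36, 3.63, 3.74, 3.49 and 3.62%. Every female smoke library lay above every female air library, while the male groups overlapped because male air 1 and 2 lay within the male smoke range. In the surgery experiment the mean share was 3.84% ± 0.3 (SD, n = 3) in sham and 4.19% ± 0.0313 (SD, n = 3) in OVX at 3 months. At 5 months it was 4.1% ± 0.134 (SD, n = 5) in sham and 4.28% ± 0.315 (SD, n = 5) in OVX.

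**Figure D1:**
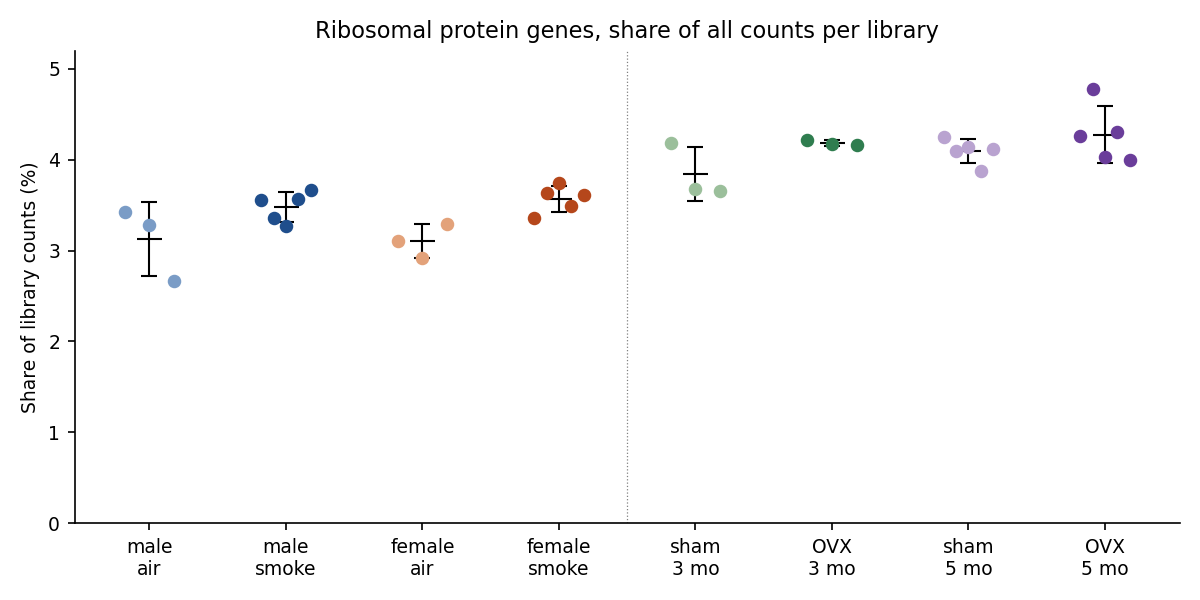
Share of all counts taken by the 87 ribosomal protein genes (percent, vertical axis) in each library (points) of the 8 groups, with the mean and SD in black and a dotted line between the experiments. Male air 3 (2.67%) and female air 2 (2.92%) were the lowest of all libraries, and OVX 5-month library 2 (4.78%) the highest.

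Under smoke in females, 20 of the 85 tested ribosomal protein genes rose and 0 fell (edgeR quasi-likelihood test, Benjamini-Hochberg adjusted p under 0.05 over all 16361 genes). Over all genes, 4.52% were called higher and 3.18% lower. The members' median log2 fold change was 0.22, against -0.01 over all genes. Of the large-subunit genes 12 of 50 rose, and of the small-subunit genes 8 of 34. The groups did not overlap, with smoke higher, for 35 of 85 members, against 8.04% of all genes.

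Rpl39, a small protein lining the exit tunnel for the nascent chain, had the smallest p of the members in females. Its CPM were 88.7, 72.7 and 89.8 in female air and 122, 119, 151, 132 and 135 in female smoke. All 5 smoke libraries lay above all 3 air libraries. The log2 fold change was 0.65 ± 0.12 (SE), adjusted p = 0.00262 by edgeR's quasi-likelihood test. In males Rpl39 stood at 102, 93.1 and 64.8 CPM in air and 98.1, 100.3, 109.5, 107 and 123 CPM in smoke. Those groups overlapped, at a log2 fold change of 0.31 ± 0.12 (SE), adjusted p = 0.116.

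The largest rises in females belonged to the 2 low-count genes named above as sharing sequence. Rpl23a, which helps form the exit site of the large subunit, read 7.78, 8.02 and 8.23 CPM in female air and 19.5, 10.2, 19.8, 18.3 and 17.9 CPM in female smoke. Smoke library 2 stood near the air libraries and the other 4 well above. The log2 fold change was 1.10 ± 0.28 (SE), adjusted p = 0.0234 (edgeR). Rpl35, its neighbour at the exit site, rose by 0.82 ± 0.21 (SE), adjusted p = 0.0226. After these and Rpl39 came Rpl37 at 0.59, Rpl41 at 0.53 and Rpl35a at 0.52, all small basic proteins of the large subunit, with edgeR adjusted p of 0.0146, 0.0482 and 0.0115. The remaining 14 rose by 0.26 (Rpl5, which carries 5S rRNA into the ribosome) to 0.48 (Rpl36a). They included Rps3, an entry-channel protein also known in DNA repair (0.28), and Rps23, a decoding-centre protein (0.43).

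The female count depended on single libraries and on the test. DESeq2 called 31 and limma on log2(TPM + 0.1) called 32. Over all genes these called 1039 and 553 higher, against 739 by edgeR. Without female air 2 the count was 1, without female air 1 it was 6, without female air 3 it was 11 and without female smoke 3 it was 13. In the same order, 423, 549, 282 and 600 of all genes rose in these fits. The share of the genes tested was not computed for them. The members' median was 0.15 without female air 2, still above 0. Of the 20, only Rpl39 passed the threshold in all 8 fits that left out 1 library. Of the 7 libraries over 100 CPM Alb, male air 1 and female air 2 belong to the sex experiment. The fit without them left 1 female call, with 444 of all genes risen in females. All 7 erythroid genes rose in the same comparison, with a median of 2.54, and plasma-cell genes summed to 9.81 to 14.2 CPM in air and 55.1 to 257 CPM in smoke. Neutrophil genes (5) summed to 30.6 to 49.4 CPM in air and 55.4 to 98.9 CPM in smoke, with S100a8 and S100a9 risen. Of 6 B cell genes 1 rose (Cd22), with a median of 0.50, and 2 were higher and 0 lower at an unadjusted p under 0.05 (edgeR). The part of any of these in the ribosomal protein rise was not tested.

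Under smoke in males, 14 of 85 members rose and 1 fell, against 4.93% of all genes higher and 5.33% lower (edgeR). The members' median was 0.15, against 0.01 over all genes. The small subunit supplied 8 of the 14 rises and the large subunit 6. Smoke lay above air without overlap for 18 members, against 8.61% of all genes.

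Rps15a, a small-subunit protein, had the smallest p in males. Its CPM were 291, 286 and 223 in male air and 432, 327, 359.6, 368 and 390.3 in male smoke, with no overlap. It rose by 0.49 ± 0.10 (SE), adjusted p = 0.0023 on the log2 scale (edgeR), and by 0.36 ± 0.10 (SE), adjusted p = 0.0267 in females. Rps14, at the platform of the small subunit, rose by 0.49 in males and 0.40 in females. Rpl26, known as a regulator of p53 translation, read 426, 422 and 318 CPM in male air and 602, 451, 537, 533 and 588 CPM in male smoke. Every smoke library exceeded every air library, at a log2 fold change of 0.48 ± 0.11 (SE), adjusted p = 0.00495 (edgeR). Rps7 (an Mdm2-binding protein), Rpl12 (at the base of the stalk) and Rps25 rose by 0.46, 0.42 and 0.41. For Rps7 the groups overlapped, since male smoke 2 read 511 CPM and male air 1 539 CPM.

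The 1 member that fell was Rps4l, a paralog of Rps4x. Its CPM were 41.1, 39.3 and 53.3 in male air and 30.8, 32.2, 30.7, 30.2 and 22.9 in male smoke, with every smoke library lower. The log2 fold change was -0.60 ± 0.14 (SE), adjusted p = 0.00737 (edgeR). Female values overlapped, at 29.9, 36.7 and 40.2 CPM in air and 23.7, 31.8, 29, 33.9 and 23.9 CPM in smoke, with a log2 fold change of -0.32 ± 0.14 (SE), adjusted p = 0.178. The related Rps4x, on the X chromosome, rose in males by 0.30 ± 0.09 (SE), adjusted p = 0.0338. Rps4l lies within the gene Tmtc1 on the opposite strand, and whether counting used strand is not given in the sources used here.

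**Figure D2:**
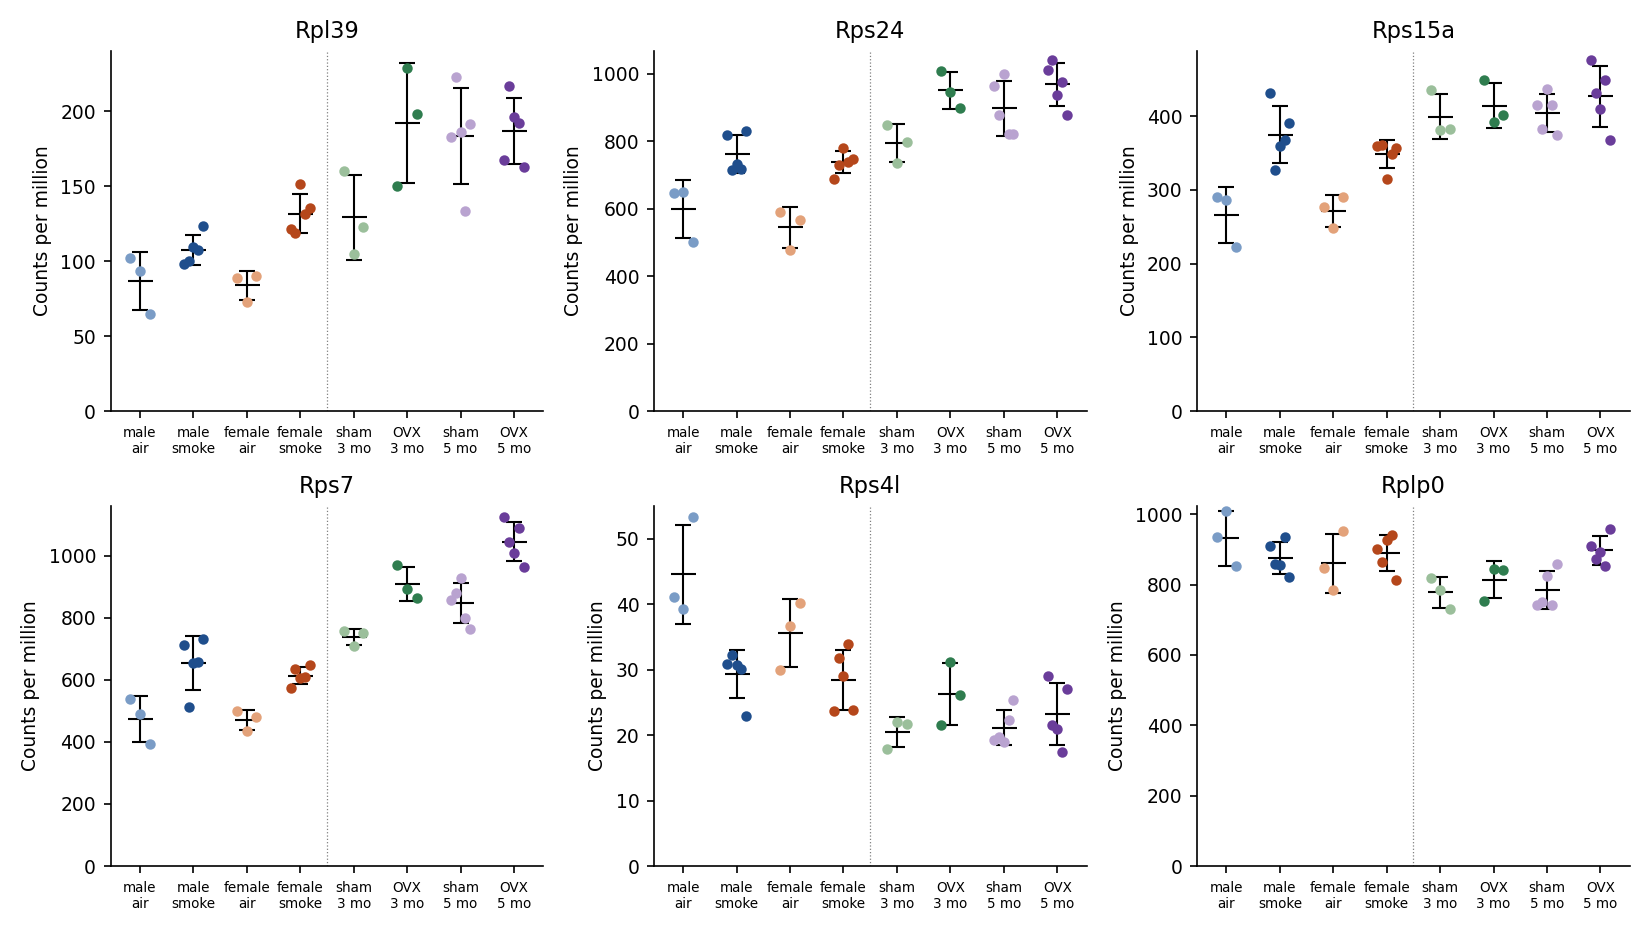
CPM (vertical axes, from 0, scaled within each experiment) of Rpl39, Rps24, Rps15a, Rps7, Rps4l and Rplp0 in every library (points) of the 8 groups, with mean and SD in black. Rps15a smoke libraries lie above the air libraries in both sexes, Rps4l lies lower in male smoke, and Rplp0 overlaps between air and smoke.

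The male count also moved with single libraries. Without male air 3 it was 3, with the fall of Rps4l no longer past the threshold and a members' median of 0.04. Without male air 2 the count was 9, without male smoke 1 it was 7 and without male smoke 5 it was 8. Over all genes 439 rose without male air 3, 421 without male air 2, 581 without male smoke 1 and 597 without male smoke 5. With all libraries 806 rose, and the share of the genes tested was not computed for the smaller fits. DESeq2 called 22 members risen, and 965 of all genes. Rpl12, Rps14 and Rps15a were called in all 8 fits that left out 1 library. Male air 3 had an erythroid sum of 11759.5 CPM, within the male smoke range of 9101 to 11838 CPM, and 0 of 7 erythroid genes passed in males (edgeR, median 0.65, 1 higher and 0 lower at an unadjusted p under 0.05). Plasma-cell genes (4) summed to 8.15 to 16.4 CPM in male air and 39 to 102 CPM in male smoke, with 1 risen (Igj). Of 6 B cell genes 0 passed, with a median of 0.40, and 3 were higher and 0 lower at an unadjusted p under 0.05 (edgeR). Neutrophil genes (5) summed to 35.3 to 52.9 and 67.6 to 104 CPM, with S100a8 and S100a9 risen, and the part of these in the male count was not tested. Liver genes fell in males (5 of 6), and leaving out the libraries over 100 CPM Alb gave 16 risen members, with 496 of all genes risen.

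The lists of both sexes shared 7 genes: Rpl13a, Rpl26, Rpl7, Rps14, Rps15a, Rps24 and Rps7. Rps24, a small-subunit protein mutated in some cases of Diamond-Blackfan anaemia, ranged from 477 to 591 CPM in female air and from 689.6 to 781 CPM in female smoke. In males it ranged from 501 to 650.3 CPM in air and from 716 to 831 CPM in smoke. Neither sex's groups overlapped. Rpl13a, also known as a translational silencer in inflammation, rose by 0.43 in females and 0.33 in males, with edgeR adjusted p of 0.0103 and 0.0386. The 7 shared genes were 35% of the female list and 50% of the male list, and 27 members rose in at least 1 sex. Over all genes, 388 rose in both, 52.5% of the female and 48.1% of the male list. The number of shared members was 0 without female air 2, 2 without male air 3, 4 without female air 1 or 3 or male smoke 1 or 5, and 5 to 9 without any other 1 library. Fold changes were above 0 in both sexes for 65 members. They were at or below 0 in both for 10, among them Rplp2, Rpl8, Rps2 and Rpl28. Across the 85 members the fold changes of females and males had Pearson r = 0.55 and Spearman rho = 0.42, as a description, since genes of 1 library share its depth and composition.

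**Figure D3:**
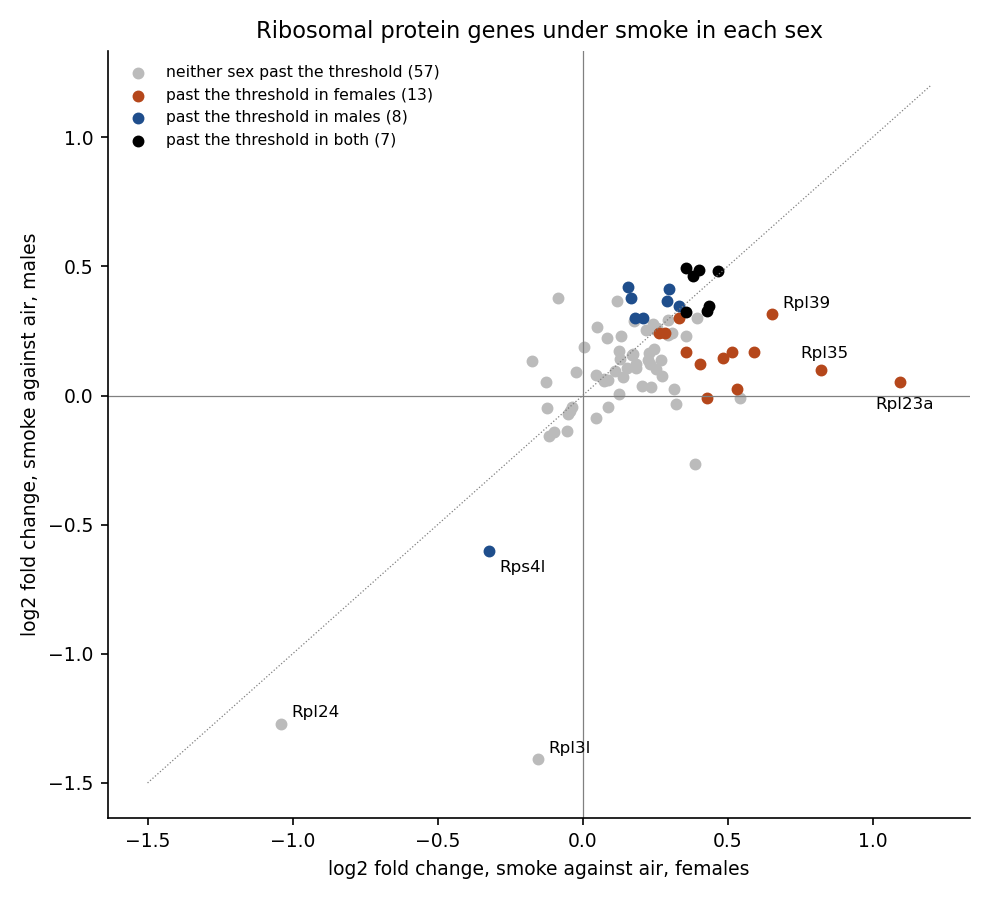
Log2 fold change of smoke against air in females (horizontal axis) and males (vertical axis) for the 85 tested ribosomal protein genes (points), coloured by the sex in which they passed the threshold, with equality dotted. Most points lie above 0 on both axes, and Rpl23a and Rpl35 lie far to the right at male values of 0.05 and 0.10.

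The difference between the sexes in the response to smoke was itself tested. By edgeR 0 of 85 members passed, with 0.00611% of all genes passing, and 9 members had an unadjusted p under 0.05. Such counts of members pool both directions here and below, and the share of all genes at that cut was not computed. DESeq2 also called 0 members, and 17 of all genes. Rps23 had the smallest p, with an interaction of 0.44 ± 0.16 (SE) and edgeR adjusted p = 0.784. For Rpl23a the interaction was 1.04 ± 0.39 (SE), adjusted p = 0.787. Between smoke-exposed females and males 0 members passed by edgeR or DESeq2, and 8 had an unadjusted p under 0.05 (edgeR). Of all genes 0.189% passed by edgeR, and DESeq2 called 63. Rpl37 was the closest, at 0.36 ± 0.12 (SE), adjusted p = 0.458 (edgeR, females minus males). Between air-exposed females and males 0 members passed by either tool, with 0.177% of all genes passing by edgeR and 133 called by DESeq2. Only 1 member had an unadjusted p under 0.05 (edgeR). That 1 was Rps4l, at -0.32 ± 0.16 (SE), adjusted p = 0.537 (edgeR). The members' median changed sign for all of these sex differences when single libraries were left out.

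At 5 months 3 of 84 members were higher in OVX than in sham and 0 were lower (edgeR), against 0.587% of all genes higher and 0.776% lower. Rps7 read 857, 880.4, 927, 800.4 and 765 CPM in sham and 1125, 1044, 1009, 1088 and 962 CPM in OVX. Every OVX library exceeded every sham library, at a log2 fold change of 0.31 ± 0.06 (SE), adjusted p = 0.0213. Rpl19 rose by 0.22 ± 0.06 (SE), adjusted p = 0.0482 (edgeR), from 551, 566, 569, 535 and 572 to 640.2, 657, 681, 653 and 633 CPM. It lies on the large subunit and reaches across to the small one. In all, 13 of 84 members did not overlap, with OVX higher, against 1.93% of all genes, and the members' median was 0.09 against -0.01 over all genes.

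The count was 0 without sham 1, 4 or 5 or OVX 1 or 4, and 1 without sham 3 or OVX 5. In the same order, 15, 33, 24, 24 and 39 of all genes rose, then 33 and 70, against 99 with all libraries. DESeq2 called 16 members and 307 of all genes risen, and limma on log2 TPM called 0 and 17. The median was 0.05 without OVX 2, the library with the highest share, 0.04 with library totals only, and 0.01 on log2 TPM. The median over all genes under these same settings was -0.02, -0.06 and -0.08. The nuclear RNAs Malat1 and Neat1 had a median of -0.78 in the same comparison, with 0 of 2 past the edgeR threshold and an unadjusted p under 0.05 for 2, and their part was not tested.

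**Figure D4:**
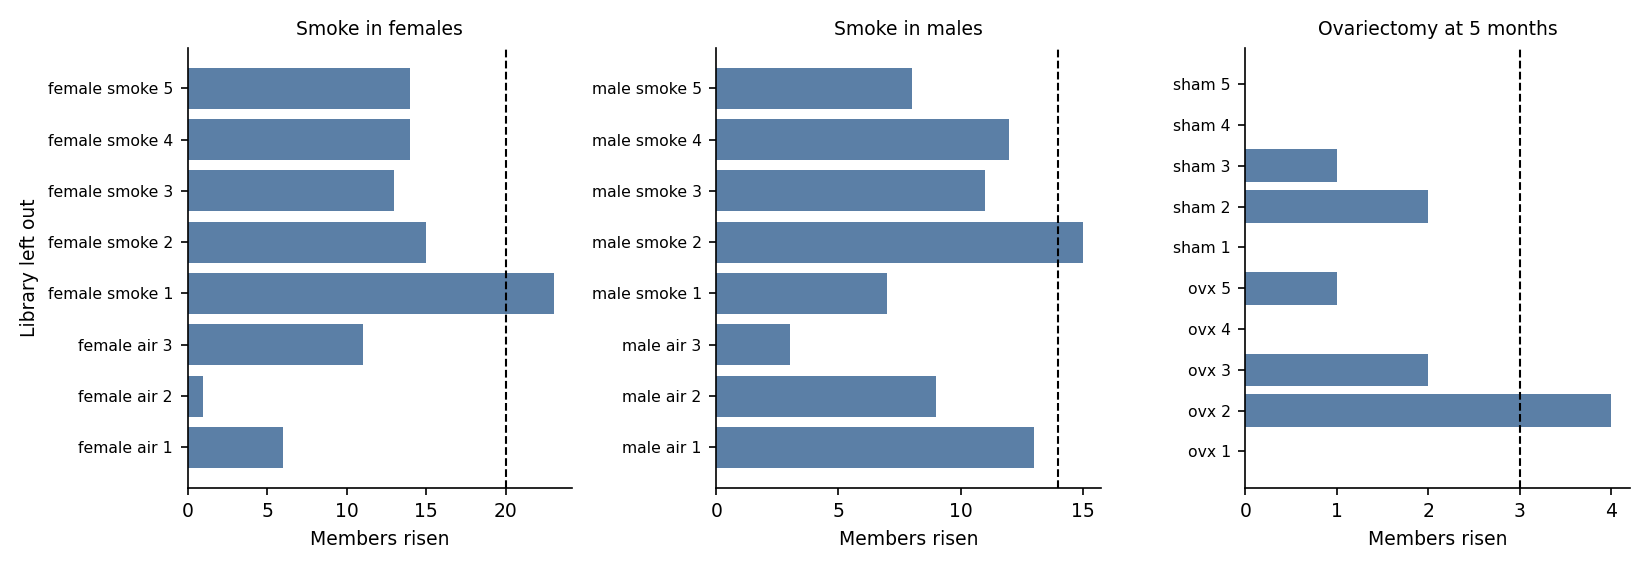
Number of ribosomal protein genes called risen (horizontal axis) when the library named on the vertical axis was left out, for smoke in females, smoke in males and OVX at 5 months, with the count over all libraries dashed (20, 14 and 3). The female count fell to 1 without female air 2 and the male count to 3 without male air 3.

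At 3 months of OVX 0 of 84 members passed by edgeR, with 0.0% of all genes passing, and 33 members had an unadjusted p under 0.05. That count pools both directions, and the share of all genes at that cut was not computed. DESeq2 called 6 members risen and 0 fallen, and 93 of all genes, 71 of them higher. The median was nonetheless 0.18, against 0.00 over all genes, and 30 members did not overlap with OVX higher, against 7.5% of all genes. Rpl26 had the smallest p: 589.6, 528 and 545 CPM in sham and 683, 681 and 678 CPM in OVX, at 0.30 ± 0.08 (SE), adjusted p = 0.263 (edgeR). Rps4x had the opposite sign, at -0.35 ± 0.10 (SE), adjusted p = 0.266, with 1072, 991 and 753 CPM in sham and 766, 753 and 684 CPM in OVX. For the difference of the OVX effect between the times, 0 of 84 passed by edgeR or DESeq2, and 13 had an unadjusted p under 0.05 (edgeR). Of all genes 0.0% passed by edgeR, and DESeq2 called 23. Rps4x was the closest, at 0.47 ± 0.13 (SE), adjusted p = 0.938 (edgeR). The members' median for that difference was -0.10, and 0.01 without the libraries over 100 CPM Alb.

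From 3 to 5 months of smoke, 0 of 84 members passed in sham mice by edgeR, with 0.00593% of all genes passing. An unadjusted p under 0.05 was found for 28 members, both directions pooled. The share of all genes at that cut was not computed. DESeq2 called 4 members risen and 1 fallen, and 105 of all genes, 56 of them higher. The median was 0.16, and 0.10 without sham 3-month library 2. Rps4x had the smallest p, at -0.35 ± 0.09 (SE), adjusted p = 0.234 (edgeR). Without sham 3-month library 3, this gene, Rps4x, was called lower at -0.49 (edgeR adjusted p = 0.0169). In OVX mice 0 passed by edgeR, with 0.0178% of all genes passing, and 15 members had an unadjusted p under 0.05. DESeq2 called 5 members risen and 0 fallen, and 90 of all genes, 62 of them higher. The median was 0.05, 0.02 without OVX 5-month library 2 and 0.14 without the libraries over 100 CPM Alb. Rps26, near the mRNA exit, had the smallest p, at 0.23 ± 0.07 (SE), adjusted p = 0.276 (edgeR).

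Some libraries were the lowest or highest of their group for most members. Male air 3 was the lowest of its group for 81 of 85 members, at a median of -0.33 log2 units from the mean of the other libraries. Female air 2 was the lowest for 75 of 85, at -0.20. Male air 1 and female air 3 were each the highest for 70 members. Among the surgery groups, sham 3-month library 1 was highest for 71 of 84 and OVX 5-month library 2 for 56. Over all genes, the share lying above the mean of the other libraries was 49.1% to 51.7% in these 6 libraries. The scaling of CPM holds the bulk of genes level between libraries, so an even split was set beforehand. How often these libraries were the lowest or highest of their group over all genes was not computed. Other libraries were nearer an even split among the members. In female air 1, 48 of 85 lay above the mean of the other libraries, and in male smoke 1, 46 of 85. In OVX 5-month library 1 it was 46 of 84. The residual SD of log2 CPM within groups had a median of 0.143 for members in the sex experiment, against 0.200 for all genes and 0.131 for genes above a mean log2 CPM of 8. In the surgery experiment these were 0.108, 0.210 and 0.112.

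**Figure D5:**
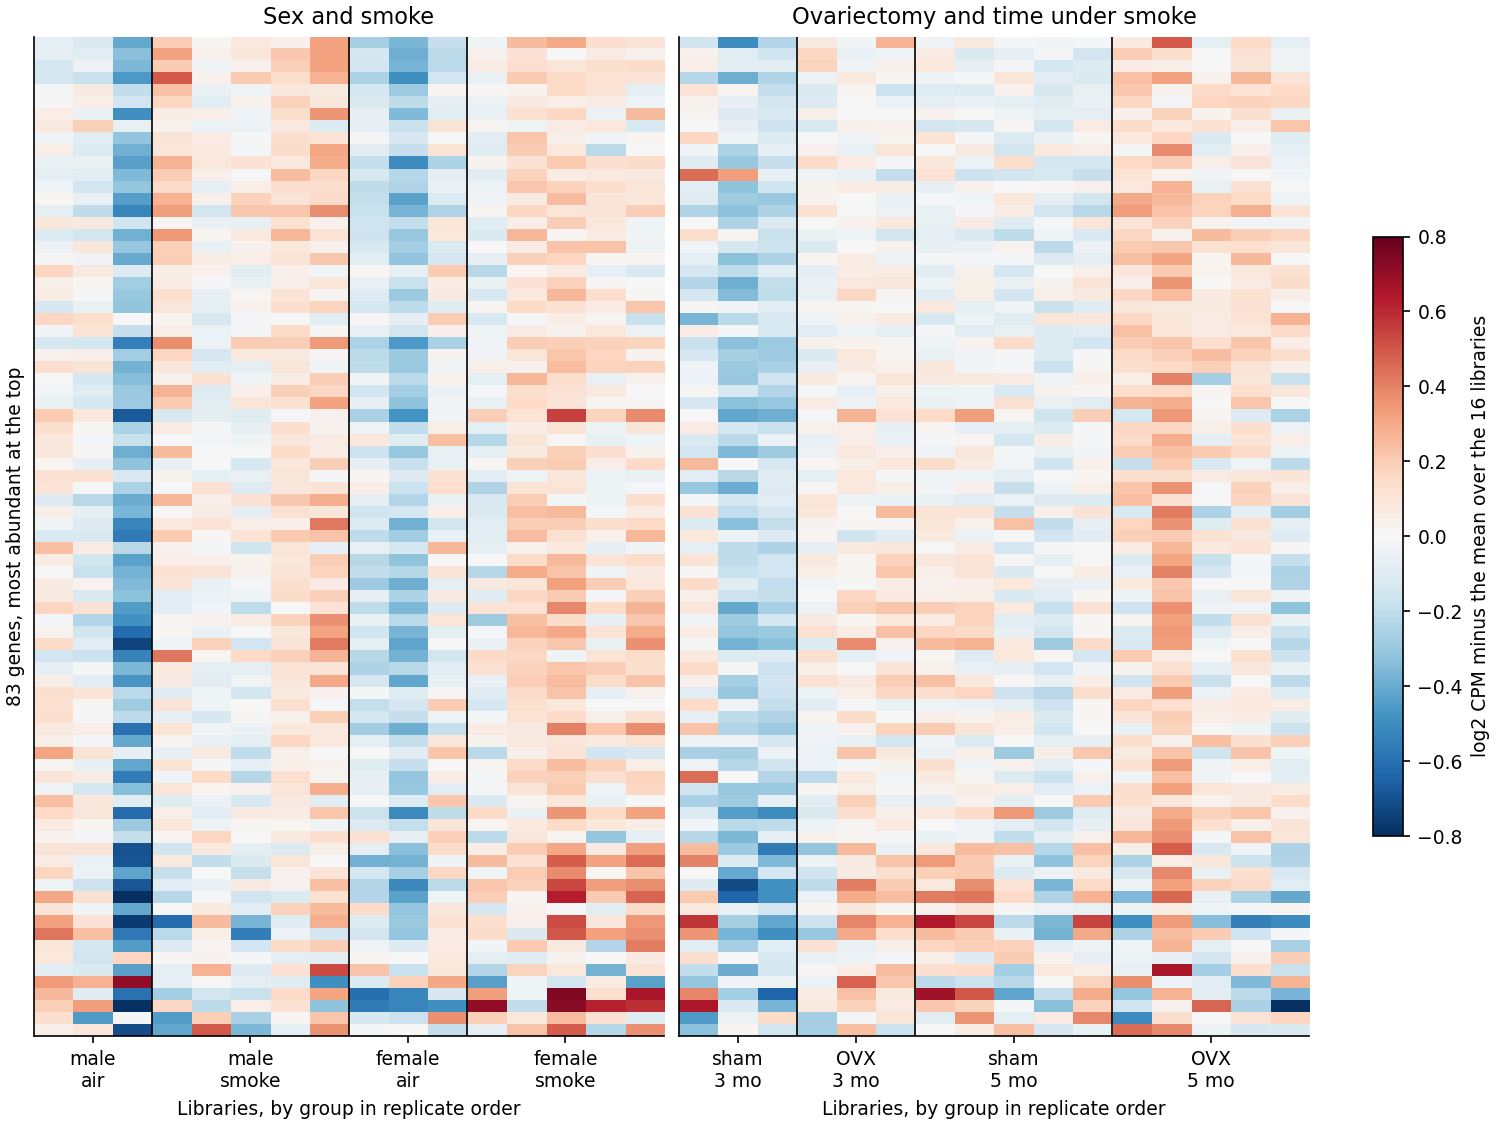
Log2 CPM of 83 ribosomal protein genes (rows, most abundant at the top, each with at least 1 CPM in every library) minus the gene's mean over the 16 libraries of its experiment, by library (columns, groups divided by black lines), with colours limited to 0.8. The third column of male air and the second of female air are blue through nearly the whole list, and the second column of OVX at 5 months is red.

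Rpl22, Rpl22l1, Rps27l and Rplp0 did not pass the threshold under smoke in either sex. Rpl22l1, the paralog of Rpl22, read 46, 34.7 and 41.7 CPM in female air and 33.2, 44.5, 41.6, 30 and 42.4 CPM in female smoke, which overlapped. Its log2 fold change was -0.09 ± 0.15 (SE), adjusted p = 0.805 under smoke in females (edgeR). For males it was 0.38 ± 0.16 (SE), adjusted p = 0.142. Rpl22 itself stood at 0.24 and 0.28, with edgeR adjusted p of 0.107 and 0.0515. Its smoke libraries nonetheless all lay above its air libraries in both sexes. It ranged from 186 to 220 CPM in female air and from 226 to 266 CPM in female smoke. In males it ranged from 181 to 225 CPM in air and from 233 to 282 CPM in smoke. Rps27l, a p53-inducible paralog of Rps27, stood at 0.12 and 0.17, neither past the threshold. The stalk protein Rplp0, often used as a reference gene, had log2 fold changes of 0.05 and -0.09, with edgeR adjusted p of 0.814 and 0.587 respectively. Rpl3l, at 0 to 19 counts a library, stood at -1.41 ± 0.68 (SE), adjusted p = 0.218 in males, and its depth allows no finer statement.

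Start-site sequences are shown from RefSeq (GRCm38.p6) for 5 of the 7 genes risen in both sexes, then for Rps27 beside its copy Rps27rt, and for the muscle gene Rpl3l. Each runs from 25 bases before to 20 bases after the annotated start, 5′ to 3′ on the gene's strand. Capitals mark the longest run of C or T that overlaps the stretch from 10 before to 20 after the start. In Rps27rt that run is 7 bases long and goes on past the printed end, so only its first 3 bases are shown.
Rpl13a: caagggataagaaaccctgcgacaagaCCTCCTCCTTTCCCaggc
Rpl26: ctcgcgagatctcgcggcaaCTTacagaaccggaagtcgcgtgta
Rps15a: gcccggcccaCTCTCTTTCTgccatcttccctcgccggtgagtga
Rps24: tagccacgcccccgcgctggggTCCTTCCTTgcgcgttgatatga
Rps7: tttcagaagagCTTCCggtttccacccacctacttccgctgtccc
Rps27: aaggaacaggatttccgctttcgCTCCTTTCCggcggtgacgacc
Rps27rt: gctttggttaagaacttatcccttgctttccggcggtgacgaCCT
Rpl3l: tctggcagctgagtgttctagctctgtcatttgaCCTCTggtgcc
The windows are Rpl13a chr7:45128726-45128770 (minus strand), Rpl26 chr11:68901541-68901585 (plus strand), Rps15a chr7:118116128-118116172 (minus strand), Rps24 chr14:24490653-24490697 (plus strand), Rps7 chr12:28635934-28635978 (minus strand), Rps27 chr3:90213629-90213673 (minus strand), Rps27rt chr9:114982720-114982764 (minus strand) and Rpl3l chr17:24727801-24727845 (plus strand). The runs of Rpl13a (14 bases), Rps15a (10), Rps24 (9) and Rps27 (9) are the long ones, and Rpl26 (3) and Rps7 (5) have none of that length. Rps24 and Rpl3l each have another annotated start that is not printed, with longest runs of 7 and 4 bases. Rps27rt shares 91.1% of its 50-base words with other genes, Rps27 foremost, so its count of 23 to 138 reads per library is uncertain.

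Windows were found for 66 of 87 members (78 windows). A run of at least 8 C or T wholly inside the stretch from 10 before to 20 after the start occurred in 30.8% of member windows and 11.2% of all 32851 windows. A wider definition, added after those shares had been seen, counts a run that only overlaps the stretch to its full length, and gave 41.0% and 16.9%. The letters CTTTC in that stretch, on the gene's strand, occurred in 20.5% and 3.74%. They can lie within a run counted above. CCGGAAG, an ETS-type motif, occurred on either strand of the whole 300-base window in 34.6% and 8.86%, and TATAAA in 8.97% and 13.6%. Such matches describe the letters and not a site in use.

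Related gene lists were counted in the same fits, where 4.52% of all genes rose and 3.18% fell under smoke in females, 4.93% rose and 5.33% fell in males, and 0.587% rose and 0.776% fell under OVX at 5 months. A list of 15 genes with TOP mRNAs held mainly translation factors, and also other genes such as Tpt1 and Nap1l1. Of these 15, 3 rose under smoke in females (Pabpc1, the poly(A)-binding protein, Tpt1 and Eif3e). In males 2 rose (Eif3e and Nap1l1), and the medians were 0.14 in females and 0.03 in males. At an unadjusted p under 0.05, 6 were higher and 1 lower in females, and 3 higher and 1 lower in males. Under OVX at 5 months 4 rose: Eif3f, Eif3h, Eef1a1, which delivers aminoacyl-tRNA, and Eif4b. Of 39 ribosome biogenesis genes 0 rose under smoke in either sex by edgeR, while Eif6 fell in females and Bysl in males, with medians of -0.08 and -0.07. At an unadjusted p under 0.05, 0 were higher and 8 lower in females, and 2 higher and 6 lower in males. Of 27 genes of the mTORC1 and S6 kinase pathway 0 rose and 2 fell in females (Ddit4 and Sesn1, both upstream inhibitors), and 0 rose and 3 fell in males (Ddit4, Pdcd4 and Rps6ka1). At an unadjusted p under 0.05, 4 were higher and 7 lower in females, and 1 higher and 5 lower in males. Mitochondrial ribosomal proteins had 1 of 76 fallen in females (Mrpl37) and 1 of 76 risen in males (Mrpl42). At an unadjusted p under 0.05, 1 was higher and 7 lower in females, and 5 higher and 2 lower in males. The mRNAs encoded by mitochondrial DNA had 4 of 12 risen in females and 5 of 12 in males, with medians of 0.46 and 0.41. Of these, 11 were higher in females and 8 in males at an unadjusted p under 0.05, and 0 were lower in either sex. Under OVX at 5 months the calls in these other lists were 1 fallen S6 kinase, Rps6kb2, and 1 risen mitochondrially encoded gene, mt-Co1, with 0 calls among the ribosome biogenesis genes and the mitochondrial ribosomal proteins (edgeR). At an unadjusted p under 0.05, 1 ribosome biogenesis gene was higher and 5 lower, and 7 of the mitochondrial ribosomal proteins were higher and 0 lower. By the same measure 8 of 12 mitochondrially encoded genes were higher and 0 lower, with a median of 0.28. Of the 15 genes with TOP mRNAs 11 were higher and 0 lower, with a median of 0.21. Of the 27 mTORC1 and S6 kinase pathway genes 2 were higher and 4 lower. Of 3 tested ribosomal proteins outside the name rule, 0 passed the edgeR threshold under smoke in either sex or OVX at 5 months. At an unadjusted p under 0.05, 1 was higher in females, 1 in males and 2 under OVX, with 0 lower. Among them, Fau had log2 fold changes of 0.12 and 0.09 under smoke in females and males, with edgeR adjusted p of 0.526 and 0.629. The share of all genes at the unadjusted cut was not computed.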

How the data were processed

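The authors deposited 1 table of raw counts per gene and 1 table of normalized values, which reproduce TPM from the deposited counts and the deposited gene length in 100.0% of values. The unit of the second table was read from its values. FastQC and the builds GRCm38 and mm10 are named in the submitters' processing notes, and the aligner (like the counter and annotation) was not given in the sources used here. Libraries were made with a NEBNext Ultra 2 kit, per the labels' protocols. Columns were matched to samples by their labels, with 0 columns unmatched.

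Counts were tested with edgeR 4.0.16 (quasi-likelihood, TMM scaling, filterByExpr) in R 4.3.3, 1 fit per experiment over all its groups, with Benjamini-Hochberg adjustment over all genes tested (16361 and 16874) and a threshold of 0.05. Standard errors are the log2 fold change divided by the root of the F statistic. Of the members, Rpl39l and Rpl10l were not tested in the sex experiment, nor these and Rpl24 in the surgery experiment, for low counts. The script was tested on simulated data. CPM are TMM-scaled within an experiment, so levels are not set across experiments. DESeq2 1.42.0 and limma 3.58.1 (log2 TPM with pseudocounts of 1 and 0.1) served as alternatives, with other scalings, filters, a replicate block, pseudogene rows added and single libraries left out. Leaving out libraries over 100 CPM Alb was chosen after seeing the data, and so was the wider count of pyrimidine runs. Promoter windows came from RefSeq, shared words from GENCODE M21, and figures from matplotlib 3.10.9 in Python 3.11.15.

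Named genes were up to 6 of the largest called rises and falls per comparison, the member with the smallest p where none was called, and a panel of stalk proteins, paralogs and other members with known roles. Others named, such as the lists shared by both sexes, were chosen after their values were seen. The members, lists and panel were chosen with earlier results of these data known. Some genes that met the naming rule are not reported here.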

Additional observations from a re-analysis of the deposited data

Results flagged for a closer look

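Outlying libraries were sought for 47 named members and the members' share of counts, only in the groups of 5 libraries. In 13 of these 192 tests, 1 library lay far from the others of its group in CPM. The groups of 3 libraries, which include male air and female air, were too small and were not tested. Chance gives about 1 in 20. Male smoke 5 was high for Rpl22 (282.0) and Rpl34 (436.2) and low for Rps4l (22.9, the others 30.2 to 32.2). Female smoke 1 was low for Rpl26 (455.4, the others 527.1 to 534.5) and Rpl34 (307.1). Female smoke 2 was low for Rpl23a (10.2, the others 17.9 to 19.8), and female smoke 3 was low for Rps15a (315.4). In sham at 5 months, library 1 was high for Rps4x (853.2), library 2 was high for Rpl13a (1694), and library 3 was low for Rpl22l1 (57.4) and high for Rps27a (675.2). In OVX at 5 months, library 2 was high for Rpl22 (432.9) and Rplp1 (1127).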

How the results depend on the processing

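The number of members risen under smoke in females (20) was 8 with the replicate block, 31 by DESeq2, 32 by limma on log2(TPM + 0.1), 1 without the libraries over 100 CPM Alb, and 1 to 23 when 1 library was left out. In males (14) it was 7 with the replicate block, 22 by DESeq2 and 3 to 15 with 1 library left out, and the count of fallen members (1) was 0 to 1. For OVX at 5 months (3) it was 1 with library totals only, 16 by DESeq2, 0 by limma with either pseudocount, 1 without the libraries over 100 CPM Alb, and 0 to 4 with 1 library left out. DESeq2 called 6 risen for OVX at 3 months, 4 risen and 1 fallen for time in sham, and 5 risen for time in OVX, where edgeR called 0, and leaving out 1 library gave 0 to 1 fallen for time in sham. Without the libraries over 100 CPM Alb the members' median was 0.12 for sex in air (-0.02 with all), 0.0093 for OVX by time (-0.10) and 0.14 for time in OVX (0.05). The cause of these shifts was not tested. No called member reversed its direction under any setting run.

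All genes called numbered 1259 for smoke in females (490 to 1151 with 1 library left out, 788 by limma on log2(TPM + 0.1)), 1678 in males (962 to 1694, and 991 by that limma fit) and 230 for OVX at 5 months (39 to 259, 111 without the libraries over 100 CPM Alb and 602 by DESeq2). DESeq2 called 93 for OVX at 3 months (edgeR 0), 23 for OVX by time (0), 17 for sex by smoke (1), 133 for sex in air (29), 63 for sex in smoke (31), 105 for time in sham (1) and 90 for time in OVX (3). The labels do not say whether replicate numbers pair the libraries. Same-numbered deviations from the group means correlated at 0.053 to 0.122 for smoke in females and -0.065 to 0.176 in males. Differently numbered libraries were not correlated for reference, so these values cannot decide whether libraries were paired. The replicate block tests only a shared number. The 3 libraries in each air group limit the precision of both smoke comparisons.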
